A study of Mus musculus with 4 samples.

Results

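Glutathione, thioredoxin and NRF2 antioxidant genes were examined in primary cultures of mouse keratinocytes, which form the epidermis. The set was chosen by gene name, with earlier results of these data known, and not by any threshold on these values. It holds 48 genes of the 2 thiol systems, the enzymes that remove superoxide and peroxide, and the factor that controls many of them. Each gene was represented by the array row annotated with its symbol alone, or by the brightest such row. Of the 48 genes, 45 had a row among the 22180 genes tested, and Prdx5, Gstm5 and Ggt1 were left out. Primary cells came from 1-week-old C57BL/6J mice, all homozygous for floxed Glut1 alleles. Wild-type cells carried the floxed alleles alone, and Glut1-deficient cells also carried a Cre transgene whose keratin 14 promoter works in basal keratinocytes. Each genotype had 4 mice with a plate apiece, and pools of 2 plates gave 2 wild-type and 2 Glut1-deficient arrays. All cells grew in a low-calcium keratinocyte medium with EGF, insulin, hydrocortisone and pituitary extract. For RNA, 1500000 wild-type and 1000000 Glut1-deficient cells were taken per sample.

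Cells make glutathione from glutamate, cysteine and glycine, use it to reduce peroxides and to conjugate reactive compounds, and return its oxidised form to the reduced one with NADPH. The thioredoxin system works beside it, with its own NADPH-dependent reductases and its peroxiredoxins. NRF2, encoded by Nfe2l2, is held back by KEAP1 and, once released, binds antioxidant response elements in genes of both systems. Epidermal cells are known to rely on these systems against sunlight and air. Glucose feeds the pentose phosphate pathway, a main source of NADPH, so the comparison sets NADPH-using reductases beside conjugating enzymes when the glucose transporter Glut1 is deleted.

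Values are log2 intensities, so a difference of 1 is a doubling. The brighter Slc2a1 row, for the gene that encodes Glut1, averaged 11.09 on wild-type and 11.01 on Glut1-deficient arrays (limma adjusted p = 0.675), and the position of its probes relative to the deleted exons is not given in the sources used here, so the genotype is named by its label. Of 12 keratinocyte markers, Krt14, Dsp and Epcam had the highest means, with Krt14 at 12.56 and 12.54 on wild-type and 12.15 and 12.21 on Glut1-deficient arrays. Krt15 and the differentiation keratins Krt1 and Krt10 were dim, between 2.67 and 5.04 on all arrays. The 12 averaged 9.23 and 9.25 against 9.06 and 9.13, with 0 past the test in limma and 1 higher and 6 lower at an unadjusted p under 0.05, among them Col17a1 at -0.73 and Itgb4 at -0.57. Fibroblast markers and most melanocyte markers were higher on the Glut1-deficient arrays. The 11 fibroblast markers averaged 5.25 and 5.17 on the wild-type arrays and 6.68 and 6.02 on Glut1-deficient arrays 1 and 2, and Dcn, Pdgfra and Vim led them. Of these 11 markers, 0 passed the test over all genes in limma and 9 had an unadjusted p under 0.05. The 10 melanocyte markers averaged 4.97 and 4.78 against 5.58 and 5.65, and 5 of them rose, among them Dct, Tyrp1 and Pmel. The other 5 did not pass in limma. Sox10 read 4.14 and 4.13 against 4.01 and 3.99, a difference of -0.14. Tyr, Gpr143 and Kit differed by 0.05, 0.08 and 0.20 and overlapped between genotypes. The 8 endothelial markers averaged 3.89 and 3.92 against 4.22 and 4.15, with Kdr alone risen, by 2.38, and Pecam1 at -0.35 (median 0.04), and the 9 leukocyte markers 4.04 and 3.96 against 3.93 and 3.90 (median -0.07). The part of other cell types in the results that follow was not tested.

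Across the antioxidant genes, 1 of 45 passed the test between genotypes. Gpx8, a peroxidase of the endoplasmic reticulum, fell, 0 rose and 44 did not pass (limma, Benjamini-Hochberg adjusted p under 0.05 over all genes), which is 2.22% of the set beside 2.84% of all genes tested. The set thus held no larger share of calls than the array as a whole. An unadjusted p under 0.05 was found for 15 of the 45 (limma), 4 higher and 11 lower in Glut1-deficient cells. That is 33.3% beside 22.2% of all genes (11.0% higher and 11.2% lower). The 2 genotypes did not overlap in 35 of the 45 genes, or 77.8% beside 53.2% of all genes. The Glut1-deficient pair lay above in 17 of these and below in 18, where all genes gave 25.5% above and 27.7% below. The median log2 fold change (Glut1-deficient minus wild type) was -0.02 over the set and -0.01 over all genes. Differences were small: 39 of the 45 were under 0.5 in size on the log2 scale and 0 reached 1. The median size was 0.19 beside 0.14 over all genes. The set was brighter than the array as a whole, with array means of 8.08 to 8.16 beside 5.34 to 5.35. These shares and sizes therefore do not compare genes of like brightness. Members were also chosen with earlier results of these data known, so the shares are a description. With the dimmer genes left out, 18 of 41 members and 4316 of 11090 genes had an unadjusted p under 0.05 (limma). The number of calls depended on how the variance was modelled. With a variance that follows intensity, 12 of 45 passed in limma (4 rose and 8 fell; 26.7% beside 12.0% of all genes), and with the dimmer genes left out 9 of 41 passed (2 and 7; 22.0% beside 21.0%). Labels put 2 arrays in each group, so an exact permutation test of a value could not give a two-sided p below 0.333, and p-values measure only the spread between these pools.

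**Figure D1:**
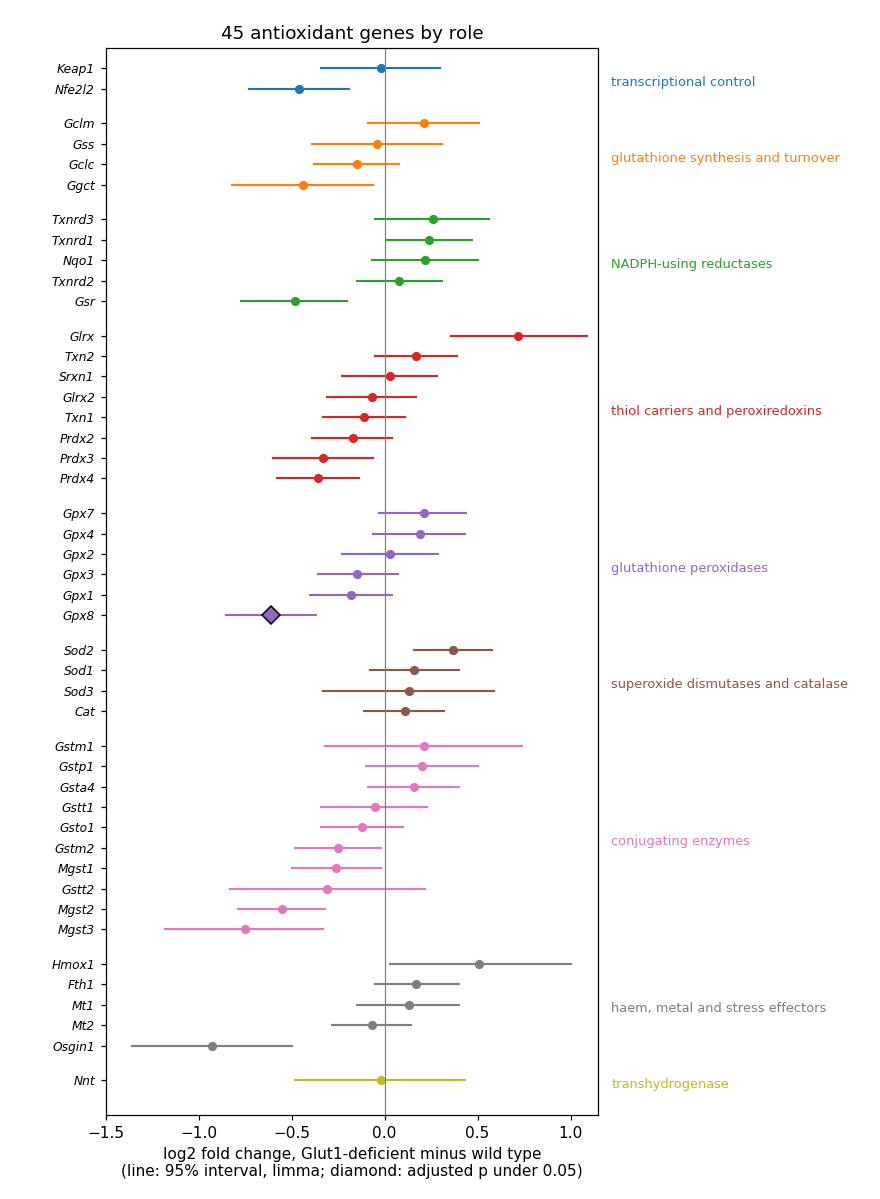
Log2 fold change of each of the 45 antioxidant genes, Glut1-deficient minus wild type, on the horizontal axis, with its 95% interval as a line, grouped and coloured by role. Gpx8, at -0.61, is the diamond that marks an adjusted p under 0.05 in limma, Osgin1 lies lowest at -0.93 and Glrx highest at 0.72, and most points lie within 0.5 of 0.

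Of the pair that sets the programme, the gene for the factor was lower and that for its repressor was level. Nfe2l2, which encodes NRF2, read 10.28 and 10.26 on the wild-type arrays and 9.70 and 9.90 on the Glut1-deficient arrays. Both Glut1-deficient arrays lay below both wild-type arrays, with array 1 the lower. The difference was -0.46 with a standard error of 0.10 and a 95% interval of -0.73 to -0.19, and it did not pass over all genes (limma adjusted p = 0.0936). Keap1, the adaptor that sends NRF2 to degradation, read 7.46 and 7.45 against 7.29 and 7.58, so the Glut1-deficient arrays lay on either side of the wild type. Its difference was -0.02, with a 95% interval of -0.34 to 0.30.

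The enzymes that make and break down glutathione showed no common direction, with 0 of 4 measured genes past the test in limma. An unadjusted p under 0.05 was found for 1 of the 4 (limma), beside 22.2% of all genes. Glutamate-cysteine ligase carries out the rate-limiting step. Its catalytic subunit gene Gclc read 9.73 and 9.84 on wild-type and 9.65 and 9.62 on Glut1-deficient arrays. Its modifier subunit gene Gclm read 9.43 and 9.69 against 9.79 and 9.76. Both subunit genes separated the genotypes, as 53.2% of all genes did. They went in opposite directions, Gclc downward by 0.15 (interval -0.38 to 0.08) and Gclm upward by 0.21 (interval -0.09 to 0.51). Both intervals include 0. Gss, which adds glycine to complete glutathione, read 7.29 and 7.17 against 7.35 and 7.03 and overlapped. Ggct, which breaks down gamma-glutamyl dipeptides, read 7.30 and 7.27 against 6.65 and 7.03. The lower of its Glut1-deficient values was again array 1, and its difference of -0.44 had an interval of -0.82 to -0.06 (limma adjusted p = 0.178).

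Among the 5 reductases that take electrons from NADPH, 4 were higher and glutathione reductase was lower on the Glut1-deficient arrays. In each the 2 genotypes did not overlap, as in 77.8% of the set and 53.2% of all genes. None passed over all genes in limma. An unadjusted p under 0.05 was found for 1 higher and 1 lower (limma), beside 22.2% of all genes. Gsr, the reductase that regenerates glutathione, read 9.78 and 9.89 on wild-type and 9.25 and 9.46 on Glut1-deficient arrays. Its difference was -0.48 with a standard error of 0.11 and an interval of -0.77 to -0.20 (limma adjusted p = 0.0963). All 3 thioredoxin reductase genes went the other way. Txnrd1, the cytosolic enzyme and a known NRF2 target, read 9.84 and 9.95 against 10.14 and 10.12, a difference of 0.24 (interval 0.01 to 0.47). Txnrd2, the mitochondrial enzyme, read 5.78 and 5.79 against 5.92 and 5.81, a difference of 0.08. Txnrd3, which can also reduce glutathione disulphide, read 5.85 and 6.04 against 6.11 and 6.30, a difference of 0.26. For Txnrd2 the nearest arrays of the 2 genotypes were only 0.02 apart, and the interval of its mean difference was -0.15 to 0.31. Nqo1, a quinone reductase that serves as a standard reporter of NRF2 activity, read 8.10 and 8.17 against 8.25 and 8.47. Its difference of 0.22 had an interval of -0.07 to 0.50 (limma adjusted p = 0.332) and ran from 0.11 to 0.33 with 1 array left out, so the classical reporter of the pathway was not shown to differ.

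The conjugating enzymes, which attach glutathione to reactive compounds, were lower more often than higher. Of 10 measured genes, 0 passed over all genes in limma. At an unadjusted p under 0.05 in limma, 0 were higher and 4 lower, beside 11.0% and 11.2% of all genes. Those 4 were the 3 microsomal transferases and Gstm2. The microsomal enzymes sit in membranes and handle lipid peroxides and leukotriene precursors. Mgst3 read 7.78 and 7.56 on wild-type and 6.72 and 7.11 on Glut1-deficient arrays, a difference of -0.75 (standard error 0.16, interval -1.18 to -0.33, limma adjusted p = 0.0892). Mgst2 read 5.60 and 5.54 against 4.96 and 5.07, a difference of -0.55 (standard error 0.09, interval -0.79 to -0.32, limma adjusted p = 0.0539). Mgst1 read 6.42 and 6.54 against 6.25 and 6.19, a difference of -0.26. In all 3 the Glut1-deficient arrays lay below the wild-type arrays, as in 27.7% of all genes. The median difference of the 3 was -0.55.

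The soluble transferases of the set had a median difference of -0.05 over 7 genes, 3 positive and 4 negative. The split into microsomal and soluble enzymes was not among the planned role groups. Among other glutathione transferases outside the set, 7 differences were positive and 6 negative, with Gstt3 at -0.56 and Gstk1 at -0.51. Lower values were therefore not shown to be particular to the microsomal enzymes. Gstm2, of the mu class, read 7.24 and 7.15 against 6.98 and 6.91, a difference of -0.25 (interval -0.48 to -0.02). Gstm1 of the same class read 6.93 and 7.00 against 7.47 and 6.88. One Glut1-deficient array of Gstm1 was the highest of the 4 and the other the lowest, and its difference of 0.21 turned to -0.08 without Glut1-deficient array 1. Gstp1, the transferase best known in epithelia, read 10.30 and 10.52 against 10.54 and 10.69, a difference of 0.20 (interval -0.10 to 0.50). Gsta4, which removes the lipid peroxidation product 4-hydroxynonenal, differed by 0.16 and Gsto1, an omega-class enzyme with a reductase-like activity, by -0.12. Gstt1 and Gstt2 of the theta class overlapped between genotypes. Members of the mu and theta classes are close paralogues, and how far their probes are shared is not given in the sources used here. A row annotated to both Gstm5 and a second gene, outside the set for that reason, read 7.70 and 7.69 against 7.34 and 7.29, and a row shared by Gstp1 and Gstp2 read 9.53 and 9.55 against 9.65 and 9.68.

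Set side by side, the reductases had a median difference of 0.22 and the conjugating enzymes of -0.19, where all genes had -0.01. Array by array, the reductase median relative to the wild-type mean was 0.13 and 0.23 on Glut1-deficient arrays 1 and 2, and the conjugating median was -0.13 and -0.19. Without Glut1-deficient array 2 the reductase median was 0.13, and the conjugating median lay between -0.19 and -0.13 when any 1 array was left out. Directions were mixed within both groups: the difference of Gsr was below that of most transferases, and those of Gstm1, Gstp1 and Gsta4 were within the range of the thioredoxin reductases. These medians carry no test of the difference between the groups.

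**Figure D2:**
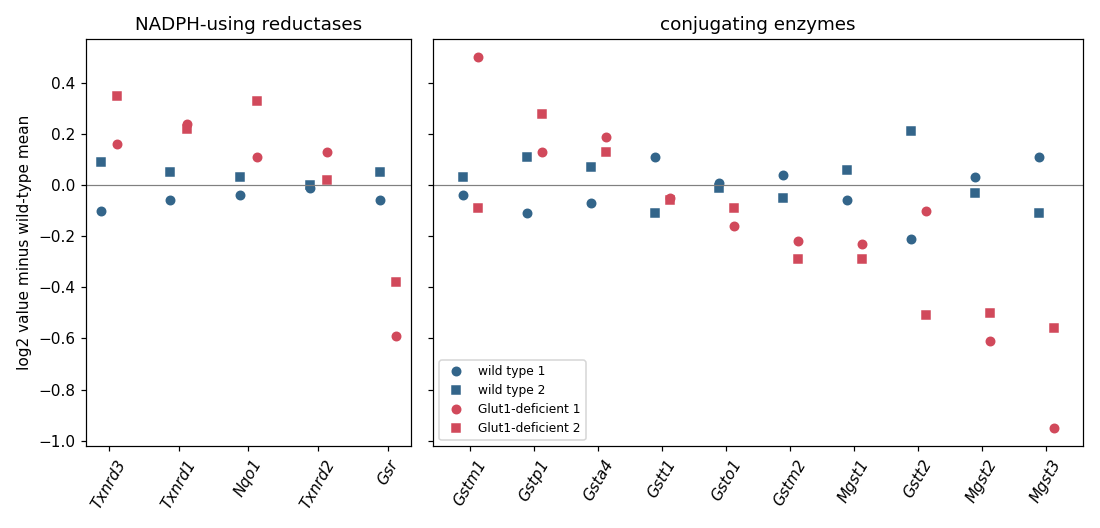
Log2 value of each array minus the wild-type mean of that gene, for the 5 NADPH-using reductases (left) and the 10 measured conjugating enzymes (right), with wild-type arrays in blue, Glut1-deficient arrays in red, circles for array 1 and squares for array 2. Gsr is the reductase whose red points lie below 0, and Mgst2 and Mgst3 have the lowest pairs of red points among the transferases.

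Thiol carriers and peroxiredoxins split between a higher glutaredoxin and lower peroxiredoxins, with 0 of 8 past the test in limma. At an unadjusted p under 0.05 in limma, 1 was higher and 2 lower, beside 11.0% and 11.2% of all genes. Glrx, the cytosolic glutaredoxin that removes glutathione from protein thiols, read 8.77 and 8.75 on wild-type and 9.67 and 9.30 on Glut1-deficient arrays. Both Glut1-deficient values were higher, array 1 more so, and the difference was 0.72 (standard error 0.14, interval 0.36 to 1.09, limma adjusted p = 0.073). The fibroblast markers had the same order, with medians 1.20 and 0.70 above the wild-type mean on arrays 1 and 2. Array 1 was the farther from the wild type in 30 members of the set and array 2 in 15. Any part of fibroblasts in the Glrx difference was not tested. Prdx4, the peroxiredoxin of the endoplasmic reticulum, read 5.53 and 5.45 against 5.13 and 5.14, a difference of -0.36 (interval -0.58 to -0.14, limma adjusted p = 0.104). Prdx3, its mitochondrial relative, read 9.52 and 9.48 against 9.07 and 9.27, a difference of -0.33 (interval -0.60 to -0.06). Prdx2 in the cytosol differed by -0.17. The 3 measured peroxiredoxins were thus all lower with no overlap of genotypes, as were 27.7% of all genes. The thioredoxins and the mitochondrial glutaredoxin had smaller differences than Glrx. Txn1, the cytosolic thioredoxin, differed by -0.11, Txn2, the mitochondrial one, by 0.17 (7.04 and 7.07 against 7.21 and 7.24, with no overlap), and Glrx2 by -0.07. Srxn1, which repairs overoxidised peroxiredoxins and is a strong NRF2 target, read 8.09 and 8.22 against 8.24 and 8.13 and overlapped.

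The glutathione peroxidases contain the gene that passed. Gpx8 read 9.12 and 9.16 on the wild-type arrays and 8.59 and 8.46 on the Glut1-deficient arrays. The genotypes were well apart relative to the spread within each, which was 0.034 and 0.088 (SD, n = 2 each). Gpx8 was 1.53-fold lower, a difference of -0.61 with a standard error of 0.09 and an interval of -0.85 to -0.37 (limma adjusted p = 0.0476). The call lay close to the threshold, with an adjusted p in limma of 0.0501 after cyclic loess. With 1 array left out, 0 of all 22180 genes passed in limma (2948 to 4627 at an unadjusted p under 0.05), so the loss of the call there says nothing about Gpx8, whose difference stayed between -0.68 and -0.55. GPX8 and its relative GPX7 are both peroxidases of the endoplasmic reticulum that use cysteine in place of the selenocysteine of GPX1 and GPX4. Gpx7 read 6.27 and 6.26 against 6.53 and 6.41, a difference of 0.21 (interval -0.03 to 0.44), and was thus on the other side of 0 from Gpx8. Gpx1, the main cytosolic selenoenzyme, read 11.27 and 11.23 against 11.04 and 11.10, a difference of -0.18. Gpx4, which protects membrane lipids from peroxidation and cells from ferroptosis, read 8.06 and 8.04 against 8.31 and 8.17, a difference of 0.19 (interval -0.06 to 0.43). Gpx3, the secreted form, differed by -0.15. Gpx2, the gut form, read between 2.46 and 2.62, below the lower quartile of 2.94 to 2.96 of all rows on these arrays, and overlapped.

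Superoxide dismutases and catalase all had positive differences, though 0 of 4 passed in limma. An unadjusted p under 0.05 was found for 1 of the 4 (limma), beside 22.2% of all genes. Sod2, the mitochondrial manganese enzyme, read 9.43 and 9.42 on wild-type and 9.81 and 9.79 on Glut1-deficient arrays. The arrays of a genotype lay within 0.02 of each other, and the difference of 0.37 had a standard error of 0.08 and an interval of 0.16 to 0.58 (limma adjusted p = 0.0927). Sod1, the cytosolic copper-zinc enzyme, read 10.29 and 10.33 against 10.53 and 10.40, a difference of 0.16. Cat, the peroxisomal catalase, read 10.56 and 10.59 against 10.68 and 10.69, a difference of 0.11. Sod3, the extracellular enzyme, read 3.99 and 3.87 against 4.30 and 3.82. Only Sod3 overlapped, and its difference of 0.13 turned to -0.11 without Glut1-deficient array 1.

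Among haem, metal and stress effectors, Osgin1 had the lowest difference of the whole set and Hmox1 one of the highest. Neither passed (0 of 5 in limma). At an unadjusted p under 0.05 in limma, 1 was higher and 1 lower, beside 11.0% and 11.2% of all genes. Osgin1, an oxidative stress-induced growth inhibitor known as an NRF2 target, read 7.49 and 7.38 on wild-type and 6.29 and 6.73 on Glut1-deficient arrays. It was 1.90-fold lower, a difference of -0.93 with a standard error of 0.17 and an interval of -1.36 to -0.50 (limma adjusted p = 0.0629). Hmox1, the inducible haem oxygenase, read 10.65 and 11.18 against 11.44 and 11.41. The wild-type arrays differed from each other by as much as the genotypes did, 0.53 beside 0.51, and the interval was 0.03 to 1.00 (limma adjusted p = 0.208). With 1 array left out the difference ran from 0.25 to 0.78. Fth1, the ferritin heavy chain that stores iron, read 12.37 and 12.43 against 12.59 and 12.56, a difference of 0.17. The metallothioneins Mt1 and Mt2, which bind zinc and copper and scavenge radicals, stayed near their wild-type values. Mt1 read 11.95 and 11.97 against 11.99 and 12.20, and Mt2 read 12.83 and 12.83 against 12.75 and 12.77. The brightest row of the arrays read 13.35 to 13.38, and no saturation flags were used here.

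Nnt, the mitochondrial transhydrogenase that makes NADPH from NADH, read 6.70 and 6.87 on wild-type and 7.00 and 6.53 on Glut1-deficient arrays and overlapped. Its difference was -0.02 (interval -0.48 to 0.43). C57BL/6J mice are known to carry a deletion within Nnt, and whether the probes of this row lie in it is not given in the sources used here.

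**Figure D3:**
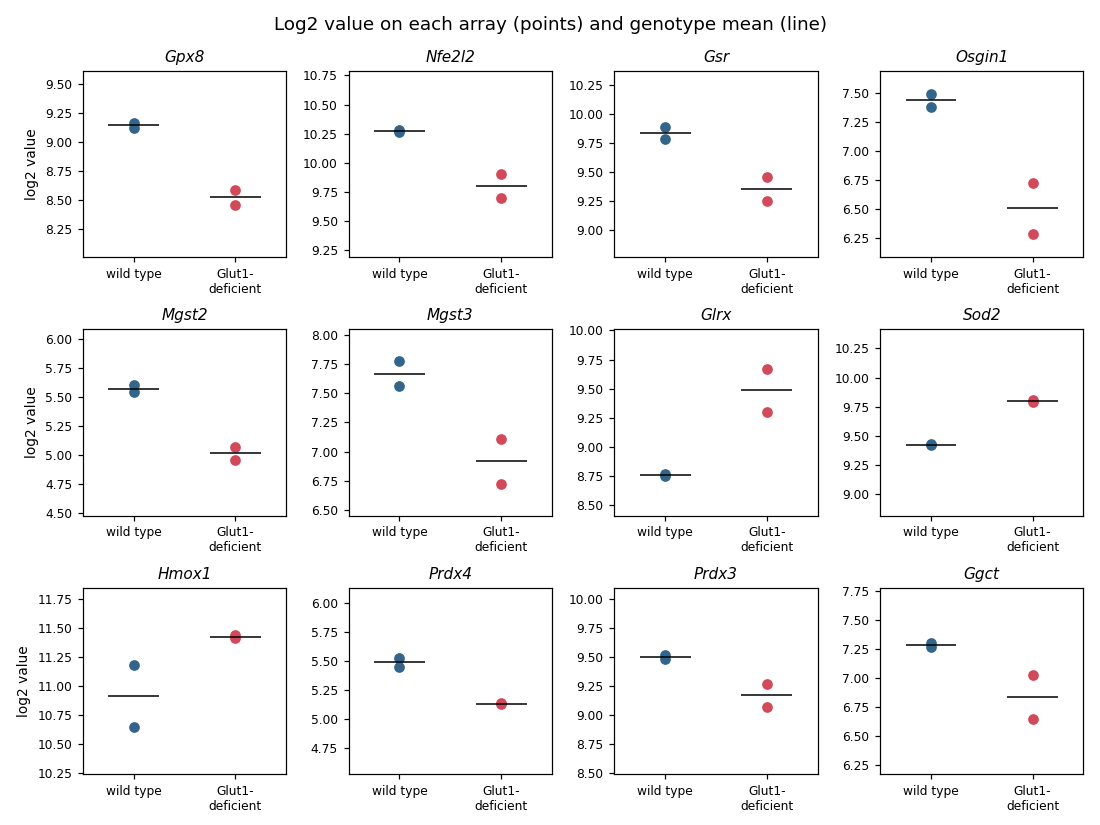
Log2 values of 12 antioxidant genes on each of the 2 wild-type (blue) and 2 Glut1-deficient (red) arrays, with the genotype mean as a line and a vertical axis of equal span in every panel. Gpx8, Mgst2, Prdx4 and Sod2 have tight pairs, whereas the Glut1-deficient arrays of Osgin1, Mgst3, Ggct and Glrx and the wild-type arrays of Hmox1 stand further apart.

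The genes also differed in how well the Glut1-deficient arrays matched each other. Gstm1 was higher on array 1 than on array 2 by 0.59, Sod3 by 0.48, Nnt by 0.46, Gstt2 by 0.42 and Glrx by 0.36. Osgin1, Mgst3 and Ggct had array 1 minus array 2 values of -0.44, -0.39 and -0.38. For Osgin1, Mgst3, Ggct and Glrx the array farther from the wild type was thus array 1, which also had the higher fibroblast markers, and for Gstt2, Nnt and Gpx8 it was array 2. Over the set, array 1 was the farther in 30 genes and array 2 in 15. Among members with an unadjusted p under 0.05 in limma these counts were 12 and 3. The same count over all genes is not given here, so the split is not shown to be particular to the set. Keratinocyte markers were also farther on array 1, with medians of -0.25 and -0.18 relative to the wild-type mean on arrays 1 and 2. Sod2, Txnrd1, Prdx4, Mt2 and Cat differed between those arrays by at most 0.02.

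The promoters were searched for the antioxidant response element, the element that NRF2 binds. Promoters of RefSeq (GRCm38.p6), 250 bases before to 50 after each start, were in the table for 38 of the 45 genes. Gclc, Gsr, Hmox1, Sod3, Gsta4, Gstt2 and Nnt had none there and were not searched. The core TGACNNNGC, on either strand, was found in 8 of the 38 (21.1%), beside 14.0% of the 27025 genes of the table. Txnrd1 had 3 promoters in the table and Mgst1 had 2, and in each gene 1 promoter held the core. In Srxn1 it lay after the start only. The other 7 are shown because they hold the core before the start, within windows of up to 20 bases on each side. They are Gclm at chr3:122245403-122245451 (+), Ggct at chr6:54993013-54993061 (-), Mgst1 at chr6:138140451-138140499 (+), Mt2 at chr8:94172519-94172567 (+), Nfe2l2 at chr2:75704875-75704913 (-), Sod1 at chr16:90220686-90220734 (+) and Txnrd1 at chr10:82859094-82859142 (+). The sequences run 5′ to 3′ on the strand of the gene, with the core or its reverse complement in capitals.
Gclm: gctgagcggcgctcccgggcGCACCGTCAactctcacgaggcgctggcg
Ggct: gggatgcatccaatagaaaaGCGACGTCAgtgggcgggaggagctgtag
Mgst1: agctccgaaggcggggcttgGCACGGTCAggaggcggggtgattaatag
Mt2: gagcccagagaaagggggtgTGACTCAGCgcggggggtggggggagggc
Nfe2l2: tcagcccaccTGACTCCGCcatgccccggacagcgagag
Sod1: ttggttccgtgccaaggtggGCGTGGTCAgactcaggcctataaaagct
Txnrd1: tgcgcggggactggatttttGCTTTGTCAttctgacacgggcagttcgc
The core of Mt2 overlaps the AP-1 motif TGACTCA, and that of Gclm overlaps a match to the metal response element. These 7 genes had no common direction. The differences of Gclm, Sod1 and Txnrd1 were positive (0.21, 0.16 and 0.24) and those of Ggct, Mgst1, Mt2 and Nfe2l2 negative (-0.44, -0.26, -0.07 and -0.46), and 0 passed in limma. The cores TGCACNC and TGCGCNC of the metal response element were found on either strand in 11 of the 38 genes (28.9%), Mt1 and Mt2 included, beside 28.2% of all genes. Neither motif was found in these windows of Gpx8 and Osgin1. These matches are letters in a short window and show no binding.

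Other genes of the same pathways, taken from 6 lists, held 9 calls. Of 77 measured genes, 8 rose and 1 fell (limma adjusted p under 0.05 over all genes), where 1.79% of all genes rose and 1.05% fell. None of these lists was chosen without knowledge of earlier results on the same arrays, so their counts are a description.

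Cysteine supply and glutathione breakdown had 4 of 13 genes risen, 0 fallen and 9 not past the test (median difference 0.37). Chac1, which cleaves glutathione inside cells, read 5.84 and 5.99 on wild-type and 8.18 and 7.94 on Glut1-deficient arrays. It rose 4.43-fold (limma adjusted p = 0.0129). Cth, the enzyme that releases cysteine from cystathionine, read 8.28 and 8.33 against 9.94 and 9.83. The cystine importer rose with both of its chains: Slc7a11 read 7.20 and 7.54 against 8.74 and 8.59, and its partner chain Slc3a2 read 10.17 and 10.18 against 11.01 and 10.88. Cth, Slc7a11 and Slc3a2 rose 2.99-fold, 2.45-fold and 1.71-fold. Oplah, which returns 5-oxoproline to glutamate, had a difference of 0.77 that did not pass, and Cbs, which makes cystathionine, one of -0.41.

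In the NADPH supply list 2 of 13 genes rose, 0 fell and 11 did not pass (median 0.04). Aldh1l2, a mitochondrial folate enzyme that yields NADPH, read 6.61 and 6.35 against 8.79 and 8.47, and Idh2, the mitochondrial NADP-dependent isocitrate dehydrogenase, read 8.68 and 8.67 against 9.58 and 9.39. They rose 4.44-fold and 1.75-fold. Their cytosolic counterparts had negative differences, -0.85 for Aldh1l1 and -0.28 for Idh1, and neither passed. Pgd of the pentose phosphate pathway had a difference of -0.20 and the malic enzyme Me1 one of 0.30, also short of the threshold. G6pdx and Tkt had no row of their own.

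Among 10 NRF2 partners and repressors 0 passed in limma. At an unadjusted p under 0.05 in limma, 3 were higher and 0 lower, beside 11.0% and 11.2% of all genes. Sqstm1, the p62 adaptor that can sequester KEAP1, read 9.97 and 10.13 against 10.93 and 10.71, a difference of 0.77 (limma adjusted p = 0.0512). Mafk, a small MAF partner of NRF2, had a difference of 0.55. Of 12 other NRF2 target enzymes 2 rose, 0 fell and 10 did not pass. These were Slc7a11, already named, and Blvrb, a biliverdin reductase, which read 6.38 and 6.33 against 7.10 and 7.06. Ephx1, the microsomal epoxide hydrolase, read 9.80 and 9.89 against 9.32 and 9.20 and lay on the other side, at -0.58 (limma adjusted p = 0.0536).

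Of 13 other glutathione transferases 1 rose, 0 fell and 12 did not pass (median 0.00). Hpgds, a sigma-class transferase that makes prostaglandin D2, read 5.45 and 5.59 against 6.82 and 6.80, a 2.44-fold rise (limma adjusted p = 0.0155). Gstk1, the kappa-class enzyme of mitochondria and peroxisomes, had a difference of -0.51 that did not pass. Of 18 other thiol and peroxide genes 0 rose, 1 fell and 17 did not pass. The one that fell was Txnip, an arrestin that binds thioredoxin, which read 8.58 and 8.47 against 5.92 and 6.48 and was 5.01-fold lower (limma adjusted p = 0.0207). The sestrins, stress-induced regulators of redox and growth signalling, were split, with Sesn2 at 0.74, Sesn1 at -0.54 and Sesn3 at -0.36, all short of the threshold.

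**Figure D4:**
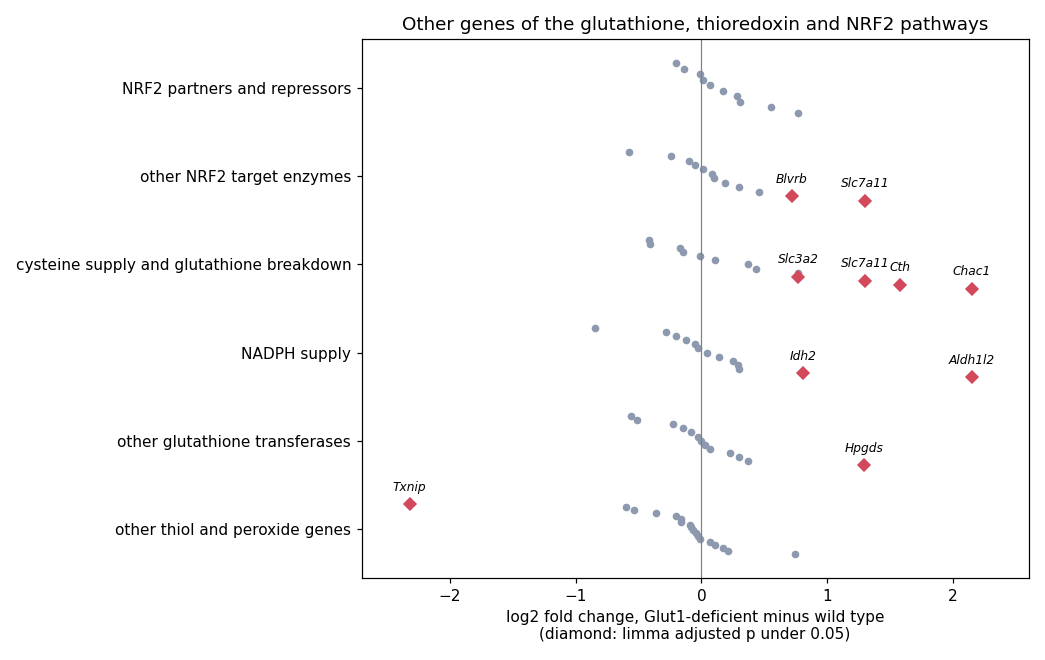
Log2 fold change, Glut1-deficient minus wild type, on the horizontal axis for every measured gene of 6 lists of related genes, 1 row of points per list, with red diamonds for genes past the limma threshold and grey circles for the rest. Slc7a11 and Me1 stand in 2 lists, and 8 different genes lie past the threshold above 0 and Txnip alone below it.

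Blvrb, Slc7a11, Hpgds, Chac1, Cth, Slc3a2, Idh2 and Aldh1l2 each had both Glut1-deficient arrays above both wild-type arrays, as 25.5% of all genes did. These genes were named because they rose on the same arrays, so this order adds no support to the rises. On the same arrays 5 of 10 melanocyte markers rose and the fibroblast markers were higher, with a median difference of 0.99. The part of melanocytes and fibroblasts in the rises of the genes named was not tested.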

How the data were processed

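The values analysed are log2 expression values per transcript cluster on MoGene 2.0 arrays, deposited by the authors. Per the submitters' processing notes they used RMA in Affymetrix Expression Console. RMA sets all arrays to 1 distribution, so changes are relative to other genes. Software versions and the genome build: not given in the sources used here. Of 41345 rows, 23521 carry 1 gene symbol, which gave 22180 genes, with the brightest row for a gene. Of those rows, 23328 matched the GRCm38.p6 gene table by identifier, and 0 symbols changed.

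Genotypes were compared by lmFit and eBayes of limma 3.58.1 under R 4.3.3 (2 residual degrees of freedom, two-sided, Benjamini-Hochberg over all genes, threshold 0.05). In simulated arrays of 22180 genes, limma recovered 0 of 50 genes changed by 0.5, 25 of 50 by 1 and 47 of 50 by 2 on the log2 scale. Of its 131 calls, 10 were false. The simulated spread did not depend on intensity, so these counts need not hold for a set brighter than the array as a whole. Few genes were changed in the simulation, 50 at each of 0.5, 1, 2 and 3, whereas 630 genes passed on the real arrays. An adjusted p depends on how many genes differ, so recovery on the real arrays need not be the same. "Rose" and "fell" are used for genes past the threshold. Array values were given for genes past it, for the 2 highest and 2 lowest differences of a role group and for all genes of groups of up to 5, and for some others chosen after their values were seen. The members and lists were chosen with earlier results of these data known. Tested alternatives were 2 variance models, 2 normalizations, a filter on dim genes, the mean of rows, all rows, each array left out, a replicate block and a threshold of 0.1. The number of arrays limits the precision. Figures were drawn with matplotlib 3.10.9.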

Additional observations from a re-analysis of the deposited data

How the results depend on the processing

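The count of antioxidant genes past the threshold was 1. It was 12 with an intensity trend, 12 with an intensity trend and robust estimation, 9 with dim genes left out and 8 at an adjusted p under 0.1. It was 0 after cyclic loess (limma, 15 genes at unadjusted p under 0.05), 0 with all rows tested separately (11 genes), 0 with the replicate block (12 genes) and 0 without any 1 array (8 to 13 genes). Over the whole array 0 of 41345 rows passed when all rows were tested (limma, 6694 at unadjusted p under 0.05) and 0 of 22180 genes without 1 array (2948 to 4627), so the fall to 0 in those settings is not particular to these genes. For the lists of related genes the count of 9 became 26, 26, 23 and 19 under the first 4 settings, 0 with all rows tested (28 genes at unadjusted p under 0.05), 1 with the replicate block and 0 without any 1 array (20 to 28 genes). Same-numbered arrays did not deviate together (r = -0.0251 over 22180 genes), so the block has no support as a pairing, and over all genes it left 37 of 630 calls. Without 1 array, the median difference of the reductases ranged from 0.13 to 0.25 and that of the conjugating enzymes from -0.19 to -0.13. Leaving out 1 array turned the sign of 8 of the 45 antioxidant genes, Gss (-0.20 to 0.12), Gstm1 (-0.08 to 0.51), Keap1 (-0.16 to 0.12), Nnt (-0.26 to 0.21), Sod3 (-0.11 to 0.37), Srxn1 (-0.04 to 0.09), Gstt1 (-0.17 to 0.06) and Gpx2 (-0.04 to 0.11), and the other alternatives turned 0 signs. It moved 22 of the 45 by over 1.5 times, these 8 included, among them Gclm (0.08 to 0.34), Gstp1 (0.10 to 0.31), Txnrd2 (0.02 to 0.13) and Ggct (-0.63 to -0.25). Where a count moved, the cause was not tested, except that leaving out an array leaves 1 residual degree of freedom. No detection calls were used, so differences of dim rows such as Gpx2 and Sod3 have no stated limit.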
